A study of Mus musculus with 6 samples.

Results

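Oxidative phosphorylation genes were examined in colonies grown from adult mouse pancreas, by complex I to V. The members are the genes of the deposited table whose symbols start with Nduf followed by a, b, c, s or v, with Uqcr, with Cox4 to Cox8 or with Atp5, together with Sdha, Sdhb, Sdhc and Sdhd. This symbol rule, which uses no measured value, takes 87 of the 11164 genes. Of these, 76 encode subunits: 36 of complex I, 4 of complex II, 8 of complex III, 13 of complex IV and 15 of complex V. Ndufa4 was counted in complex IV, where its protein resides despite its name. The other 11 genes encode no subunit of the complexes: 8 are complex I assembly factors (Ndufaf1 to Ndufaf8), Cox7a2l is a supercomplex factor, Atp5s is coupling factor B, and Atp5sl, also named Dmac2, encodes a protein of complex I membrane arm assembly. All 87 averaged 1 RPKM or more across the 6 libraries, passed the filter on low values and were tested.

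The study knocked down Glis3, a zinc-finger transcription factor, or CD133, the membrane glycoprotein encoded by Prom1, and asked how they bear on the self-renewal of progenitor-like cells. Cells with high CD133 and low CD71 were sorted from pancreas of adult C57Bl/6 mice, 2 to 4 months old, and received lentivirus overnight. They then grew for 3 weeks under puromycin in methylcellulose with Matrigel, RSPO1, nicotinamide, exendin-4, activin B, fetal calf serum and conditioned medium. Of the 3 groups, each with 2 libraries, the control group carried a single shRNA with no mammalian target, and each knockdown group carried 5 pooled shRNA clones, against Glis3 in one and CD133 in the other. All groups therefore share the sort, the lentivirus, the selection and the medium, and each knockdown mixes several shRNAs in 1 culture. The labels number the libraries 1 and 3 in each group without saying that these are distinct mice or cultures. A p-value below therefore reflects only how far these libraries scatter, which may be technical.

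Oxidative phosphorylation takes place in the inner mitochondrial membrane. Complex I oxidises NADH and complex II oxidises succinate, both passing electrons to ubiquinone; complex III passes them on to cytochrome c, and complex IV to oxygen. Complexes I, III and IV pump protons, and complex V, the ATP synthase, uses the returning protons to turn a rotor and make ATP. Most subunits are encoded in the nucleus and imported, and complexes I, III, IV and V also hold subunits encoded in mitochondrial DNA, which are not analysed here. In the pancreas, mitochondrial ATP is known for its role in coupling glucose metabolism to insulin release in beta cells and for powering ion transport in ducts.

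The depth estimated from the steps of low values, as the best of a scan, was 25.8 to 29.2 megareads per library. Summed RPKM (reads scaled by transcript length and by library depth) was 267688 to 279122. The mean level of Glis3 was 12.6 RPKM in its knockdown and 25.1 RPKM in control, and that of Prom1 was 92.0 RPKM in the CD133 knockdown and 197 RPKM in control. Of 13 ductal and epithelial markers, 12 were in the table, with Krt19, Krt8 and Epcam above 300 RPKM in every library. Of the markers of other cell types, the table held 1 of 13 acinar (Cela1, at most 1.06 RPKM), 5 of 10 endocrine (1.10 to 12.8 RPKM in sum), 1 of 9 mesenchymal (Fn1) and 1 of 7 immune markers (Cd68). No endothelial or erythroid marker was among the genes analysed. In bulk samples, fewer cells of a type and less RNA per cell cannot be told apart.

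Nuclear respiratory genes are known targets of NRF1, GABP of the ETS family, YY1 and Sp1. RefSeq promoters (GRCm38.p6, 250 bases before to 50 after the transcript start) were found for 73 of the 87 members, 79 promoters in all. On either strand, the NRF1 core GCGCATGCG occurred in 12.7% of the members' promoters and 1.75% of all 32851 promoters, and the YY1 motif AAGATGGCG in 12.7% and 1.40%. The ETS motif CCGGAAG occurred in 22.8% and 8.86%, and the shorter Sp1 motif GGGCGG in 41.8% and 35.7%. These are matches of letters, not binding sites, and the members' promoters were also richer in G and C, with a median of 58.3% against 52.7%. Of the 4 members with both an NRF1 and an ETS match (Atp5k, Atp5l, Cox6a1 and Uqcr11), Cox6a1 and Uqcr11 are printed as examples of that arrangement. Beside them stand Uqcr10 and Cox7a2l, the members with the smallest adjusted p among those higher and lower in the Glis3 knockdown. Each is written in its gene's direction, with the matches in capitals. All 4 genes lie on the minus strand, with windows at chr5:115348909-115349208 (Cox6a1), chr10:80406772-80407071 (Uqcr11), chr11:4704295-4704594 (Uqcr10) and chr17:83514284-83514583 (Cox7a2l). The Cox7a2l window, set at its RefSeq start, lies inside the gene as GENCODE M21 places it (83501918 to 83517330). On the minus strand that GENCODE gene begins upstream of the window.
Cox6a1: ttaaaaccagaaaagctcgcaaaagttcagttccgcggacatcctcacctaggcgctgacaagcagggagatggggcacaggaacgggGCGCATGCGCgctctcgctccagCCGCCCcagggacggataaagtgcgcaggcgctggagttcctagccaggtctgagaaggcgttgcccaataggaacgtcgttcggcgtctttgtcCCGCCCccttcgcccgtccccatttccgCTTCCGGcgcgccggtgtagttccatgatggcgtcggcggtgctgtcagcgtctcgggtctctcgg
Uqcr11: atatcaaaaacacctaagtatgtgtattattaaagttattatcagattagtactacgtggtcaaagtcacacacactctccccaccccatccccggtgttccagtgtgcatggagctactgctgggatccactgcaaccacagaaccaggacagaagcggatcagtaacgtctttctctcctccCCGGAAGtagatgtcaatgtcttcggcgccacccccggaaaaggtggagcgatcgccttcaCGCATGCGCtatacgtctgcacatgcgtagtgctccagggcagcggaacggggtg
Uqcr10: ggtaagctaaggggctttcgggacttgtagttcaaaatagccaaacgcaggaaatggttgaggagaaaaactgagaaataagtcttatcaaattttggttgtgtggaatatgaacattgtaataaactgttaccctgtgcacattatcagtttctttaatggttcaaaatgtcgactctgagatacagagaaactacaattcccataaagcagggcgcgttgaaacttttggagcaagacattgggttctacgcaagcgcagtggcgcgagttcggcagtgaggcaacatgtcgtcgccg
Cox7a2l: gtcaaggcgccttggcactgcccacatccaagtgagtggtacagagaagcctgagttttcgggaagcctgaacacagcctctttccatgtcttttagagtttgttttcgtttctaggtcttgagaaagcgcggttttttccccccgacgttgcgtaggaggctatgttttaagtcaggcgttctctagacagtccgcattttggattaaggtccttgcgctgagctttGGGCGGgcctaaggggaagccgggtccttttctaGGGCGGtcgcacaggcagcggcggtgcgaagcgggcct
The capitals in Cox6a1 are an NRF1 core that reads nearly the same on both strands, a pair of Sp1 matches and an ETS match, the last 3 on the opposite strand. Uqcr11 holds an ETS match and, across its start, an NRF1 core. Cox7a2l holds a pair of Sp1 matches, and no searched motif lay in the window of Uqcr10. The promoters of the other members called below held no match in Atp5o and 1 Sp1 match, on the opposite strand, in Ndufb8.

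In control colonies the members were among the more abundant transcripts, with a median of 37.3 RPKM against 9.58 RPKM over all genes tested, and they ranged from 1.61 to 244 RPKM. Of the 87, 10 lay above 100 RPKM and 13 lay below 10 RPKM, of which 6 encode subunits.
In complex I, Ndufa6, an accessory subunit of the matrix arm, was highest, at 126 and 133 RPKM in the control libraries, followed by Ndufb9 of the distal membrane arm at 103 and 114 RPKM. Ndufb2 was lowest, at 2.72 and 2.71 RPKM. Its annotated transcript length is 2413 bases, against a median of 763 bases over the members. RPKM divides by a length, and the length the authors used is not given, so such ranks depend on it. Among core subunits that carry redox centres, Ndufs1 stood at 11.8 RPKM in both control libraries and Ndufv1 at 30.5 and 34.2 RPKM. In complex II, Sdha, the flavoprotein that oxidises succinate, stood at 82.6 and 87.1 RPKM and the membrane anchor Sdhd at 75.2 and 93.1 RPKM, whose control libraries overlap, while the iron-sulphur subunit Sdhb was lowest at 26.9 and 32.1 RPKM.

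Complex III was led by Uqcrh, the acidic hinge protein, at 96.0 and 110 RPKM and by Uqcrfs1, the Rieske iron-sulphur protein, at a mean of 76.7 RPKM, with Uqcrq lowest at 26.5 and 30.8 RPKM. Complex IV was led by Cox6b1 at 161 and 186 RPKM and Cox8a at 162 and 175 RPKM, which overlap. At the other end of complex IV stood the isoforms best known from other tissues: Cox6b2, the testis isoform, at 3.74 and 2.94 RPKM, and Cox7a1, the heart and muscle isoform, at 1.61 and 1.60 RPKM. Complex V was led by the catalytic head, Atp5a1 (alpha subunit) at 236 and 251.0 RPKM and Atp5b (beta subunit) at 175 and 194 RPKM, while Atp5g1 was lowest at 6.54 and 7.48 RPKM. Within complex I, control libraries of neighbours in this order overlapped for 23 of 35 pairs, against 2 of 12 in complex IV and 4 of 14 in complex V.

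**Figure D1:**
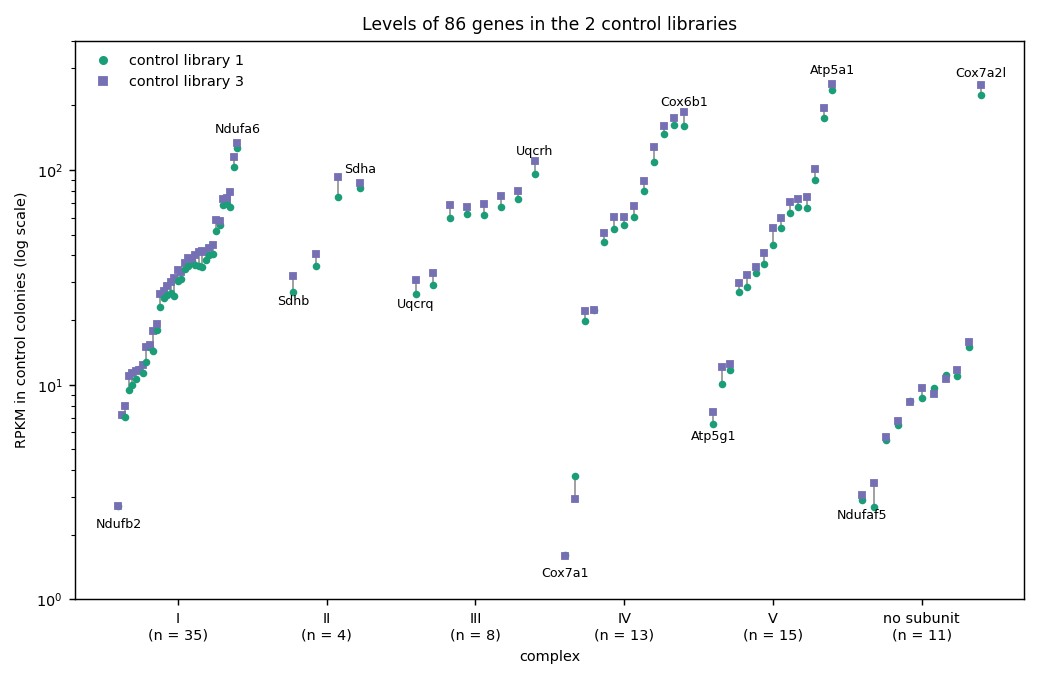
RPKM (log scale) of 86 of the 87 genes in control library 1 (circle) and control library 3 (square), joined by a line, ordered by mean within complexes I to V and the 11 genes that encode no subunit. Levels spread from 1.61 RPKM (Cox7a1) to 244 RPKM (Atp5a1), and most squares sit above their circles.

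Isoform families had the same gene of lowest RPKM in all 6 libraries. The c subunit of the ATP synthase rotor is encoded by 3 genes whose mature proteins are the same. Atp5g2 made up 46.8% to 49.3% of their summed RPKM, Atp5g3 45.8% to 48.0% and Atp5g1 4.78% to 5.25%. The ratio of Atp5g2 to Atp5g3 was 1.07 and 1.02 in control, 1.08 and 1.06 in the Glis3 knockdown and 0.981 and 0.976 in the CD133 knockdown, so the order of these genes differed there, a difference that was not tested. Atp5g2 shares 38.3% of its 50-base words with other annotated genes, the highest share of any member, so its level depends on how the authors' counting treated such reads. For Atp5g1 that share is 10.2%. The annotated transcript length is 2675.5 bases for Atp5g1, 586 for Atp5g2 and 718.5 for Atp5g3. RPKM divides by a length, and the length the authors used is not given. The shares of the 3 genes depend on it and may not be shares of transcripts. Cox6b1 was 40.3 to 63.4 times as high as Cox6b2, and Cox7a2, the widely expressed isoform, 34.5 to 111 times as high as Cox7a1. Cox4i1, Cox6a1, Cox8a and Ndufa4 also belong to isoform families, whose other genes are not analysed here. They stood at 109 and 128, 147 and 160, 162 and 175, and 79.4 and 89.0 RPKM in the control libraries.

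Before the knockdowns are compared, control library 1 needs a description, because the members stood low in it. As a median over the 87 members, log2(RPKM + 1) deviated from the mean of the 6 libraries by -0.12 in control library 1 and 0.02 in control library 3. It was 0.05 in each Glis3 knockdown library, and 0.00 in both CD133 knockdown libraries. Control library 3 was above control library 1 in 79 of 87 members (90.8%), against 51.1% of all genes tested, and control library 1 was the lowest of the 6 in 62 members (71.3%), against 26.7%. Each complex showed it: 34 of 36 genes of complex I, 4 of 4 of complex II, 8 of 8 of complex III, 10 of 13 of complex IV and 15 of 15 of complex V were higher in control library 3.

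Some other gene groups showed the same offset and others did not. Control library 3 exceeded control library 1 by a median of 0.14 on the log2 scale over the members, by 0.11 over 76 cytosolic ribosomal protein genes, by 0.08 over 18 genes of the citrate cycle and pyruvate dehydrogenase and by 0.11 over 18 glycolytic genes, against 0.00 over all genes tested. Over 17 regulators of mitochondrial biogenesis the median was -0.04, with control library 3 higher in 4, and over 9 complex I assembly factors outside the symbol rule it was -0.01, with 4 higher. The offset also varied with transcript length. Among genes that are no members the median was 0.12 under 600 bases, 0.11 from 600 to under 1000 bases, 0.06 from 1000 to under 2000 bases, and -0.07 at 4000 bases and over. The members are short, with a median transcript of 763 bases against 2722 over all genes tested, and their medians were 0.14, 0.15 and 0.15 in the first 3 of these classes. What part length or any other property of control library 1 plays in the differences below was not tested. The calls and medians below are given with and without that library.

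**Figure D2:**
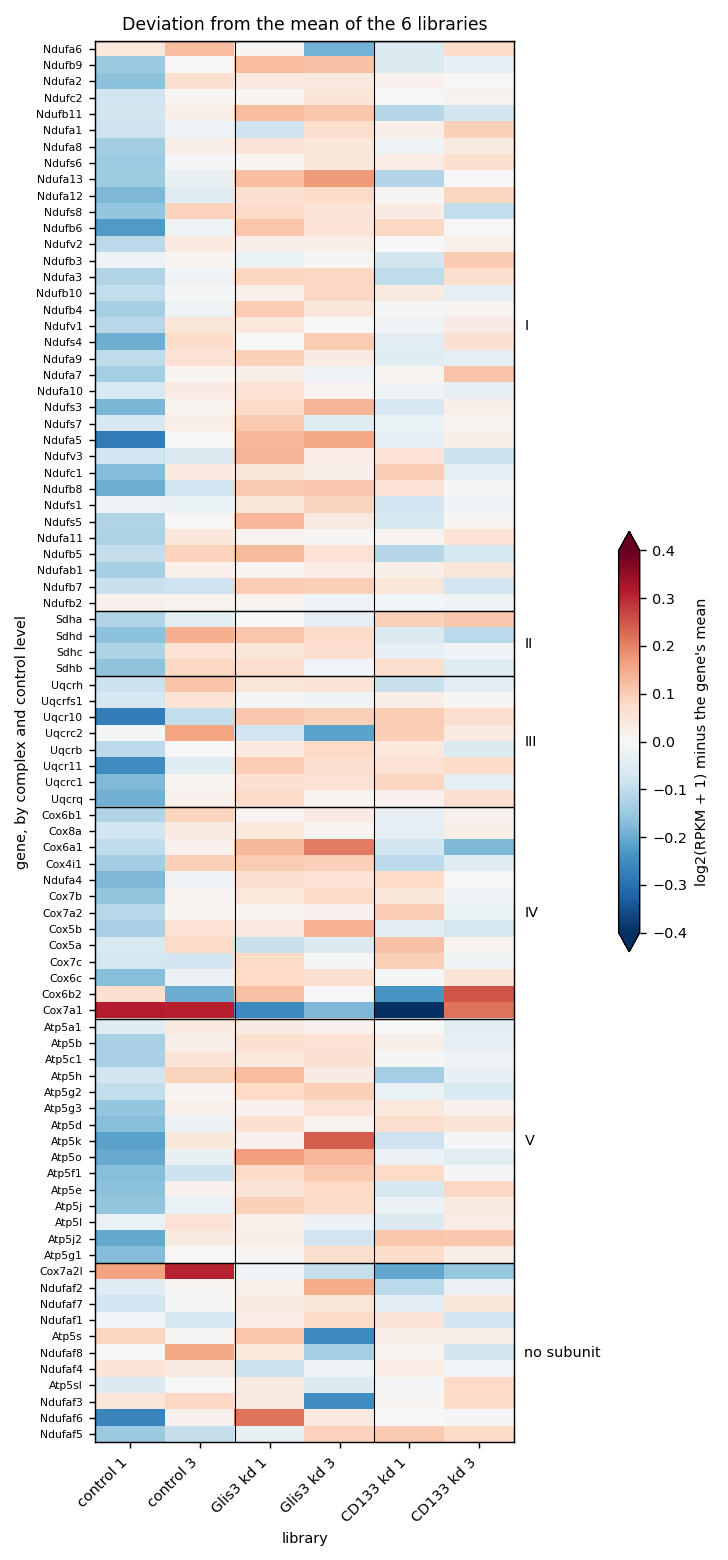
Deviation of log2(RPKM + 1) of 86 of the 87 genes (rows, by complex and control level) from its mean over the 6 libraries (columns); red is higher and blue lower, with colours capped at 0.4 in either direction. The column of control library 1 is mostly blue, with a median deviation of -0.12, while Cox7a2l and Cox7a1 are red in both control libraries.

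In the Glis3 knockdown, most oxidative phosphorylation genes stood slightly above control, few passed the test, and those that did stood at 120% to 122% or at 81.8% of the control mean. The median log2 fold change was 0.10 over the members and 0.04 over all genes tested. With limma and Benjamini-Hochberg adjustment over all genes tested (adjusted p under 0.05), 3 of 87 members were higher, against 8.39% of all genes tested, and 1 of 87 was lower, against 4.53%. Both shares of members lie below the background, a difference that was not itself tested. At an unadjusted p under 0.05, 17 members were higher and 3 lower, against 20% and 10.5% of all genes tested, so the share of members higher is near the background. Both knockdown libraries lay above both control libraries in 41 of 87 members, where 38.5% of all genes tested did so, and below them in 6 of 87, where 21.1% did.

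Uqcr10, a small subunit of complex III, had the largest log2 fold change of the members on the log2(RPKM + 1) scale. As a percentage of the control mean, Ndufaf6 (124.9%) and Ndufa5 (122.3%), which did not pass the test, stood above Uqcr10 (122.1%). The RPKM of Uqcr10 was 66.9 and 75.9 in control, 87.6 and 86.9 in the Glis3 knockdown and 87.3 and 85.5 in the CD133 knockdown. All 4 knockdown libraries lay above both controls, and control library 1 was lowest. The log2 fold change in the Glis3 knockdown was 0.29 (SE 0.07, limma adjusted p = 0.0424).

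Ndufb8, an accessory subunit of the distal membrane arm of complex I, also rose. Its RPKM was 11.4 and 12.4 in control, 14.2 and 14.3 in the Glis3 knockdown and 13.7 and 13.2 in the CD133 knockdown. The groups did not overlap, with control lowest and the Glis3 knockdown highest, and the log2 fold change was 0.24 (SE 0.06, limma adjusted p = 0.0455). Its exons overlap those of an annotated gene on the same strand, Gm20538, so reads may be shared between them.

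Atp5o, the subunit of the peripheral stalk of ATP synthase known as the oligomycin sensitivity-conferring protein, was the last of the 3. It stood at 36.4 and 41.1 RPKM in control, 47.1 and 46.0 in the Glis3 knockdown and 41.2 and 40.7 in the CD133 knockdown. Only the Glis3 knockdown libraries stood clear of the controls, with a log2 fold change of 0.26 (SE 0.07, limma adjusted p = 0.0487). GENCODE lists a further gene of the same name that overlaps its exons on the same strand and a gene on the opposite strand, and 14.0% of its 50-base words occur in other genes.

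These 3 calls lay near the threshold. Leaving out any 1 of the 6 libraries ended all of them, in fits that called 21 (without control library 1) to 1334 (without Glis3 knockdown library 1) of all genes tested in the Glis3 knockdown, against 1400 as reported. Without control library 1, the log2 fold changes in the Glis3 knockdown were 0.20 for Uqcr10, 0.19 for Ndufb8 and 0.18 for Atp5o, with limma adjusted p of 0.131, 0.169 and 0.153. The median over the members was then 0.02. Without control library 3 that median was 0.18. Centring each library on its median left 0 members higher and 1 lower, and centring within classes of transcript length left 2 higher and 2 lower, against 3 and 1 as reported. The 2 centrings called 1288 and 1767 of all genes tested in the Glis3 knockdown, in either direction.

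Cox7a2l, the member that is no subunit but a supercomplex factor also called SCAF1, fell in both knockdowns. Its protein is known to join complexes III and IV, and C57BL/6 mice are known to carry a short allele with impaired function in this role; the table does not report alleles. The gene lies at chr17:83501918-83517330 (GRCm38, minus strand, GENCODE M21) and was the second most abundant member in control. Its RPKM was 225 and 249 in control, 199 and 189 in the Glis3 knockdown, and 174 and 181 in the CD133 knockdown. Control was highest and the CD133 knockdown lowest, and no groups overlapped.

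The log2 fold change of Cox7a2l was -0.29 (SE 0.07, limma adjusted p = 0.0453) in the Glis3 knockdown, to 81.8% of control, and -0.41 (SE 0.07, adjusted p = 0.0209) in the CD133 knockdown, to 74.9%. Both comparisons share the control libraries. Between the knockdowns the difference was 0.13 (95% interval -0.04 to 0.29, limma adjusted p = 0.347) and did not pass the test. Control library 1, in which the subunit genes stood low, was also the lower of the controls for Cox7a2l. Without it the log2 fold changes were larger, -0.36 and -0.49, and without control library 3 they were -0.21 and -0.34. Neither passed in these fits (limma adjusted p = 0.0799 and 0.0737, then 0.146 and 0.0876). With a lone control library few genes could pass: 21 and 88 of all genes tested did so in the Glis3 knockdown and 0 in the CD133 knockdown either time, so these p-values say little of Cox7a2l. Without CD133 knockdown library 1 or 3 the log2 fold change in that knockdown was -0.38 or -0.44 (adjusted p = 0.134 and 0.0598), with 24 and 505 of all genes tested called, and the call held without either Glis3 knockdown library. In the Glis3 knockdown, leaving out a knockdown library of either kind gave -0.25 to -0.32 and adjusted p of 0.0772 to 0.176, where 508 to 1334 of all genes tested passed. Of its 50-base words, 13.8% occur in 1 other annotated gene. Its subunit relative Cox7a2 stood at 55.6 and 60.5 RPKM in control, 60.5 and 60.8 in the Glis3 knockdown and 64.5 and 59.0 in the CD133 knockdown, so that the ratio of Cox7a2l to Cox7a2 was 4.04 and 4.12 in control, 3.29 and 3.10 in the Glis3 knockdown and 2.70 and 3.07 in the CD133 knockdown.

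**Figure D3:**
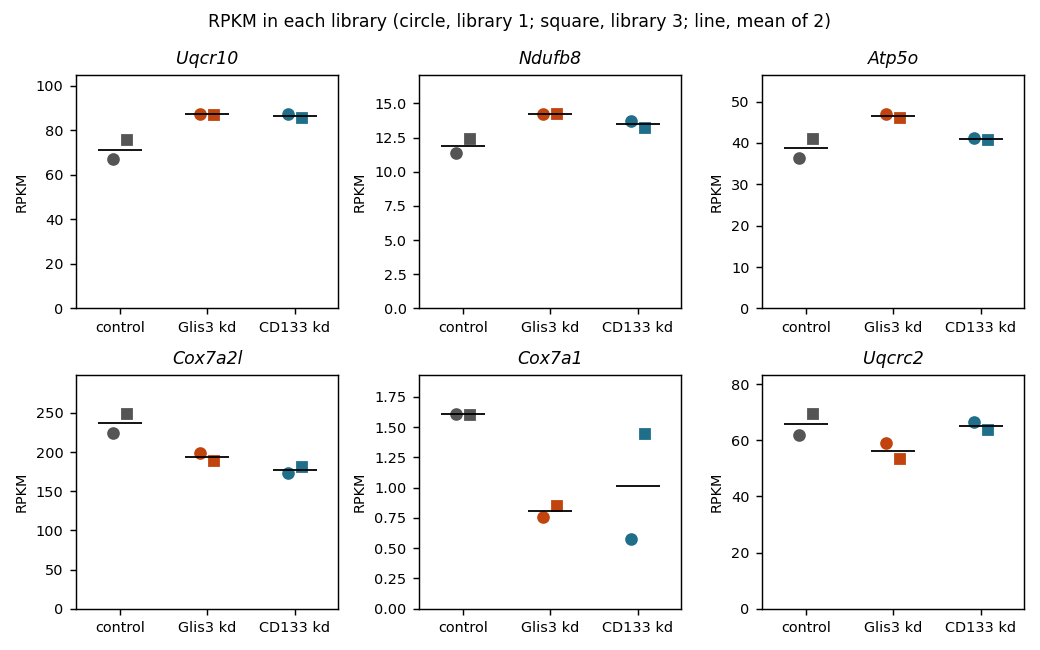
RPKM per library, by group, of the 4 members that passed the test in a knockdown (Uqcr10, Ndufb8, Atp5o, Cox7a2l) and of Cox7a1 and Uqcrc2, the subunit genes with the lowest log2 fold changes in the Glis3 knockdown; circles are library 1, squares library 3, and lines the mean of 2. Cox7a2l steps from 237 RPKM in control to 194 and 177 RPKM in the Glis3 and CD133 knockdowns, and the Cox7a1 libraries of the CD133 knockdown lie apart.

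By role within complex I, the 3 core subunits of the NADH-oxidizing arm had a median log2 fold change of 0.06 in the Glis3 knockdown. The 4 core subunits of the quinone-reducing arm had a median of 0.07, and no core subunit passed the test. Ndufs3 was the highest of the core subunits at 0.19, while Ndufs1 had 0.09 and Ndufv1 0.05. The 10 accessory subunits of the distal membrane arm had a median of 0.14, and 7 of them lay above control without overlap, where 38.5% of all genes tested did so, though Ndufb8 alone passed. Among the 10 accessory subunits of the NADH-oxidizing or quinone-reducing arm, Ndufa5 had the highest value at 0.28 (RPKM 14.4 and 17.7 in control, 19.5 and 19.8 in the knockdown, limma adjusted p = 0.0931) and Ndufa6 the lowest at -0.18 (RPKM 126 and 133, then 123 and 107). The 9 of the proximal membrane arm had values from 0.04 to 0.23, the highest in Ndufa13 (RPKM 40.2 and 43.5 in control, 48.4 and 50.2 in the knockdown, limma adjusted p = 0.0640).

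No gene of complex II passed in the Glis3 knockdown, where the 4 genes had log2 fold changes of 0.06 to 0.10 and 95% intervals within -0.15 and 0.34. In complex III, the 5 small subunits had values of 0.04 to 0.29. The core proteins, which descend from a processing protease, pointed apart. Uqcrc1 had a value of 0.14, while Uqcrc2 had -0.22 (RPKM 61.9 and 69.4 in control, 58.9 and 53.4 in the knockdown, limma adjusted p = 0.107). Both knockdown libraries of Uqcrc2 lay below both controls.

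Complex IV had no call in the Glis3 knockdown. Cox6a1 had the largest positive value, 0.21 (limma adjusted p = 0.0961). Its RPKM was 147 and 160 in control, 173 and 183 in the Glis3 knockdown and 150 and 139 in the CD133 knockdown. Cox7a1 had the lowest value of all members, -0.53 (SE 0.19, limma adjusted p = 0.116), at 1.61 and 1.60 RPKM in control, 0.76 and 0.85 in the Glis3 knockdown and 0.58 and 1.44 in the CD133 knockdown. Cox7a1 met the filter, a mean of 1 RPKM over all 6 libraries, through its control level, with a Glis3 knockdown mean of 0.805 RPKM. No fit that uses this filter can therefore count as support for a fall of Cox7a1. At this level its values rest on few reads. In complex V, the 4 stalk subunits had a median of 0.20. Beside Atp5o they were Atp5f1 (subunit b, 0.22, limma adjusted p = 0.0537), Atp5j (coupling factor 6, 0.18) and Atp5h (0.07, limma adjusted p = 0.563). The 5 F1 subunits lay between 0.03 and 0.14 and the 3 c subunit genes between 0.11 and 0.13. The 3 membrane subunits ran from -0.02 (Atp5l) to 0.21 (Atp5k).

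**Figure D4:**
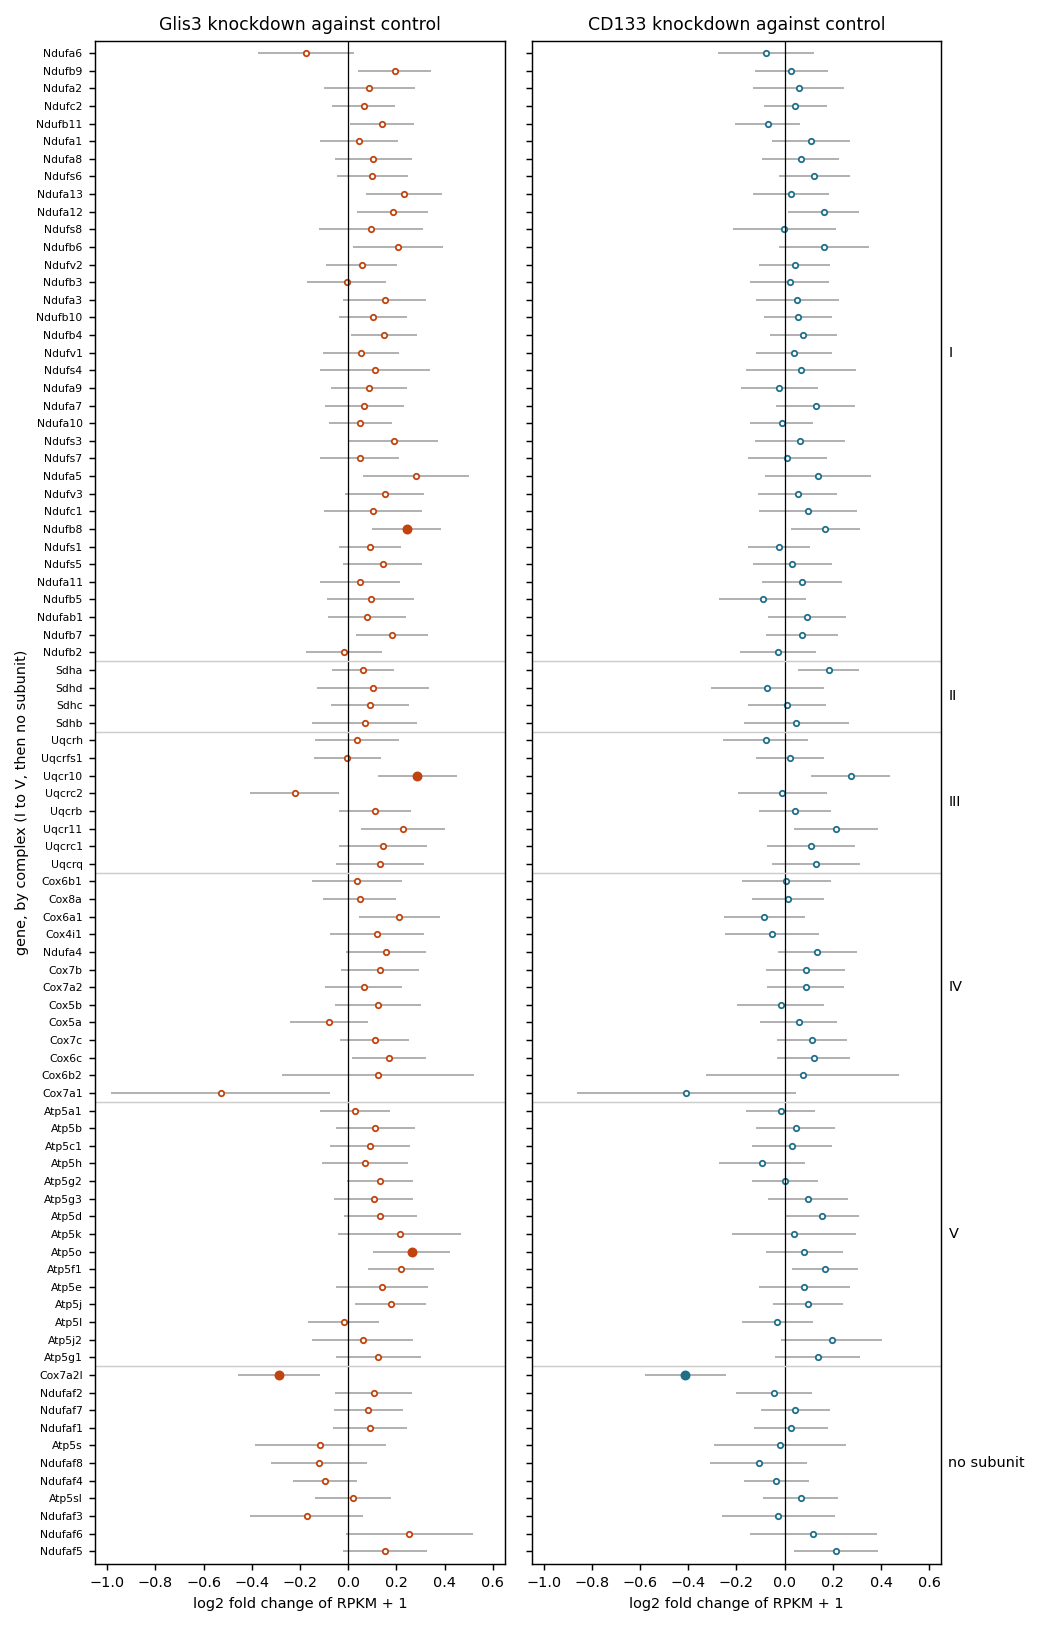
Log2 fold change on the log2(RPKM + 1) scale with 95% moderated confidence intervals for 86 of the 87 genes, by complex, in the Glis3 knockdown (left) and the CD133 knockdown (right) against the same 2 control libraries; filled points passed the test (limma adjusted p under 0.05). Most points lie between 0 and 0.3 on the left, with medians of 0.10 on the left and 0.05 on the right, and Cox7a2l is the filled point below 0 in both.

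In the CD133 knockdown the oxidative phosphorylation genes stood close to control, apart from Cox7a2l. The median log2 fold change was 0.05 over the members and 0.04 over all genes tested. By limma, 0 of 87 members were higher, against 8.16% of all genes tested, and 1 of 87 was lower, against 3.64%, while 8 were higher and 1 lower at an unadjusted p under 0.05, against 21.2% and 9.87% of all genes tested. Both knockdown libraries lay above both controls in 22 of 87 members, where 40.3% of all genes tested did so, and below them in 6, where 22.1% did. Without control library 1 the median over the members was -0.02, and without control library 3 it was 0.11.

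Uqcr10, described above, came closest to a rise, with a log2 fold change of 0.27 (SE 0.07, limma adjusted p = 0.050002, just above the threshold). Over the alternatives the adjusted p ran from 0.0422 with centring within length classes to 0.234 without CD133 knockdown library 1, where 24 of all genes tested passed. Sdha had RPKM of 82.6 and 87.1 in control, 89.8 and 87.4 in the Glis3 knockdown and 96.0 and 96.9 in the CD133 knockdown. The CD133 knockdown libraries were the highest, with a log2 fold change of 0.18 (limma adjusted p = 0.0707). The other genes of complex II had values from -0.07 (Sdhd) to 0.05 (Sdhb).

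The genes with the smallest p in the CD133 knockdown were Ndufb8 and Ndufa12 in complex I, at 0.17 and 0.16 (limma adjusted p = 0.113 and 0.135). In complex V they were Atp5f1 and Atp5d, the delta subunit, at 0.17 and 0.16 (adjusted p = 0.104 and 0.149), although Atp5j2 had a higher value of 0.20 with a wider interval (adjusted p = 0.184). In complex III, Uqcr11 followed Uqcr10 at 0.21 (adjusted p = 0.104). In complex IV the values ran from -0.41 for Cox7a1, whose CD133 knockdown libraries differed most, to 0.14 for Ndufa4 (adjusted p = 0.201 and 0.237). Cox7a1 had -0.72 without CD133 knockdown library 3 and -0.09 without CD133 knockdown library 1. The 95% intervals lay within 0.5 of 0 on the log2 scale for 85 of 87 members in the CD133 knockdown and 83 of 87 in the Glis3 knockdown. The same was true of 8890 and 8893 of all genes tested.

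Between the knockdowns no member passed the test. By limma, 0 of 87 were higher in the Glis3 knockdown, against 1.61% of all genes tested, and 0 were lower, against 2.46%, while 6 were higher and 1 lower at an unadjusted p under 0.05, against 10.5% and 11.4% of all genes tested. The median difference was 0.04 over the members and 0.00 over all genes tested. Cox6a1, the ubiquitous isoform of its complex IV subunit, differed most, being 0.30 higher in the Glis3 knockdown (95% interval 0.13 to 0.46, limma adjusted p = 0.0729), and it passed with quantile normalization and with centring within length classes (adjusted p = 0.0462 and 0.0358). Ndufb11 of the distal membrane arm was next among the genes higher there, at 0.21 (adjusted p = 0.0934), with 78.5 and 77.8 RPKM in the Glis3 knockdown, 66.5 and 68.4 in the CD133 knockdown and 68.4 and 73.4 in control. Uqcrc2 lay in the other direction at -0.21 (adjusted p = 0.175), with 66.6 and 63.8 RPKM in the CD133 knockdown. Atp5o was 0.18 higher in the Glis3 knockdown (adjusted p = 0.181), and in complex II Sdhd was 0.17 higher (adjusted p = 0.343).

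As sums, the complexes kept their proportions. The 76 subunit genes summed to 3826 and 4248 RPKM in control, 4315 and 4304 in the Glis3 knockdown and 4136 and 4138 in the CD133 knockdown. Control library 1 was lowest and control library 3 lay between the knockdowns, so the groups overlap for the CD133 knockdown and not for the Glis3 knockdown. The mean was 107% of control in the Glis3 knockdown and 102% in the CD133 knockdown. Against control library 3 alone the values were 101% and 97.4%. These sums were not tested.

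Of the subunits' summed RPKM, complex I held 32.3% to 33.1% over the 6 libraries, complex II 5.74% to 5.97%, complex III 12.4% to 13.0%, complex IV 23.7% to 24.4% and complex V 24.6% to 25.0%. No share varied by more than 1 percentage point between libraries. All 87 members together held 1.53% to 1.71% of the summed RPKM of the table.

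**Figure D5:**
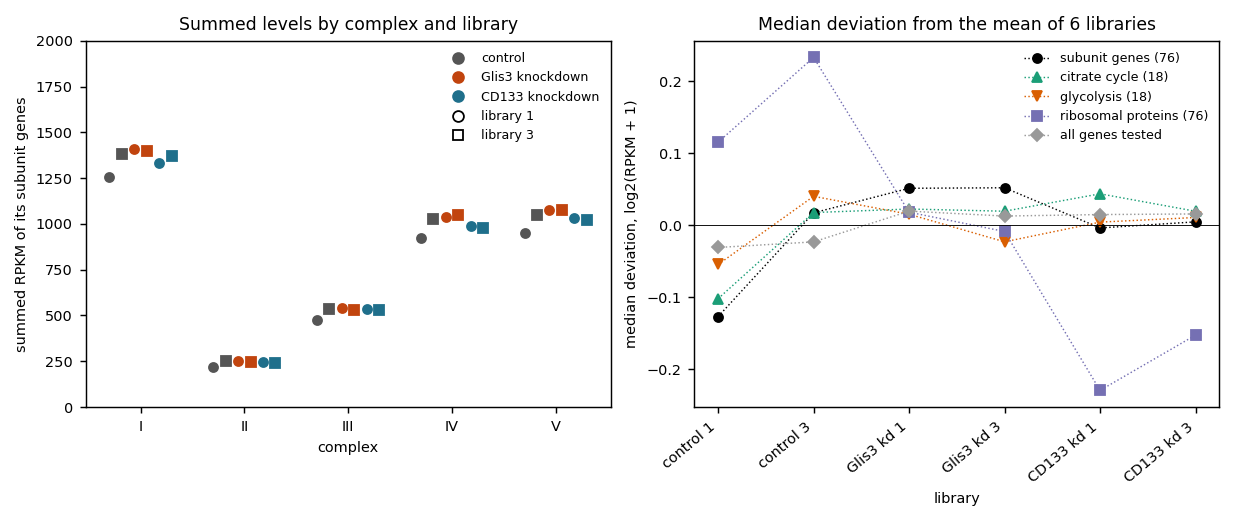
Left, summed RPKM of the subunit genes of each complex in each library (circles library 1, squares library 3, colours the groups). Right, for each library, the median over a gene group of the deviation of log2(RPKM + 1) from each gene's mean over the 6 libraries. Control library 1 is lowest in all 5 sums, and the ribosomal protein genes go from 0.12 and 0.23 in control to -0.23 and -0.15 in the CD133 knockdown while the subunit genes stand at -0.13 and 0.02 in control and 0.00 in the CD133 knockdown.

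The 11 genes that encode no subunit summed to 306 and 333 RPKM in control, 284 and 271 in the Glis3 knockdown and 257 and 264 in the CD133 knockdown, of which Cox7a2l alone made up over 170 RPKM in every library. None of the 8 complex I assembly factors passed in either knockdown. In the Glis3 knockdown their log2 fold changes ran from -0.17 (Ndufaf3) to 0.25 (Ndufaf6), with Ndufaf4 at -0.10, Ndufaf8 at -0.12, Ndufaf7 at 0.08, Ndufaf1 at 0.09, Ndufaf2 at 0.11 and Ndufaf5 at 0.15. In the CD133 knockdown Ndufaf5, a hydroxylase that modifies a core subunit, had the highest value at 0.21 (2.92 and 3.06 RPKM in control, 3.67 and 3.58 in the knockdown, limma adjusted p = 0.103). Atp5s had -0.12 and -0.02 and Atp5sl 0.02 and 0.07 in the Glis3 and CD133 knockdowns.

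Genes of the pathway that the symbol rule leaves out were counted in the same fit, and values in parentheses for them are log2 fold changes. Over all genes tested, 8.39% were higher and 4.53% lower in the Glis3 knockdown and 8.16% and 3.64% in the CD133 knockdown. With lists of 4 to 23 genes, a count of 1 or 2 calls is near these shares and says nothing particular of a list. Of 9 further subunits and carriers, 1 was higher in each knockdown and none lower. It was Gpd2, the mitochondrial glycerol-3-phosphate dehydrogenase, which also feeds electrons to ubiquinone. Its RPKM was 14.4 and 15.5 in control, 20.6 and 20.1 in the Glis3 knockdown and 20.6 and 19.5 in the CD133 knockdown, with log2 fold changes of 0.42 and 0.40 (limma adjusted p = 0.0106 and 0.0172). Control lay below both knockdowns.

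Among 23 complex IV assembly factors, 2 were higher and 0 lower in each knockdown, near the background shares of 8.39% and 8.16% higher. They were Cox14 and Cmc2 in the Glis3 knockdown (0.25 and 0.36) and Cox14 and Cox15 in the CD133 knockdown (0.31 and 0.23). Cox14, which stabilises newly made COX1, stood at 32.2 and 34.3 RPKM in control, 38.8 and 40.6 in the Glis3 knockdown and 41.8 and 41.1 in the CD133 knockdown. Of 5 complex III assembly factors, Uqcc2 was higher in the CD133 knockdown (0.31) and none passed in the Glis3 knockdown. None passed in either knockdown among 9 complex I assembly factors outside the rule, 4 complex II factors, or 4 genes for complex V factors and its inhibitor. In the Glis3 knockdown, Nubpl and Atpaf2 had log2 fold changes of 0.18 and 0.17 (limma adjusted p = 0.155 and 0.102).

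Of 17 regulators of mitochondrial biogenesis, Gabpb2, a partner subunit of the ETS factor GABP, was higher in the Glis3 knockdown (0.29), and Ssbp1 and Esrra were higher in the CD133 knockdown (0.28 and 0.37). Nrf1, the factor whose motif was searched above, had 2.84 and 2.99 RPKM in control, 3.09 and 3.37 in the Glis3 knockdown and 3.11 and 3.08 in the CD133 knockdown, and did not pass. Of the 18 citrate cycle and pyruvate dehydrogenase genes, Idh2 was higher (0.33) and Pdha1, the E1 alpha subunit of pyruvate dehydrogenase, lower (-0.65) in the Glis3 knockdown, and Idh2 and Ogdh were higher (0.39 and 0.27) in the CD133 knockdown. Pdha1 stood at 72.9 and 75.2 RPKM in control, 49.1 and 44.6 in the Glis3 knockdown and 63.9 and 65.0 in the CD133 knockdown. Of 18 glycolytic genes, 2 were higher in each knockdown, against the same background shares, Hk1 and Pfkp (0.39 and 0.38) in the Glis3 knockdown and Pfkm and Hk1 (0.27 and 0.25) in the CD133 knockdown, and none was lower.

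The cytosolic ribosomal protein genes, which are short like the members and more abundant, went another way. In control they summed to 28577 and 30896 RPKM over 76 genes, against 4132 and 4581 RPKM over the 87 members. By limma, 66 of 76 were lower in the CD133 knockdown, against 3.64% of all genes tested. In the Glis3 knockdown 6 of 76 (7.89%) were lower, against 4.53%. None was higher, against 8.16% and 8.39% of all genes tested. The median log2 fold changes were -0.37 and -0.17, where the members had 0.05 and 0.10. The difference between these gene groups was not tested. Summed RPKM of the ductal and epithelial markers was 9880 and 10466 in control, 9220 and 7868 in the Glis3 knockdown and 7895 and 8204 in the CD133 knockdown. Most of this sum was Spp1, at 6490 and 6733 RPKM in control, 5212 and 4168 in the Glis3 knockdown and 3127 and 4202 in the CD133 knockdown. Over the 12 markers the median log2 fold change was 0.08 in the Glis3 knockdown and 0.13 in the CD133 knockdown. In the Glis3 knockdown 0 were called. At an unadjusted p under 0.05, 2 were higher and 2 lower there, against 20% and 10.5% of all genes tested. In the CD133 knockdown 4 were higher (Krt19, Krt8, Sox9 and Cdh1), against 8.16% of all genes tested. There 2 were lower (Spp1 and Prom1, the targeted gene), against 3.64%. Fn1, the mesenchymal marker in the table, had 112 RPKM in both control libraries, 53.5 and 56.3 in the Glis3 knockdown and 84.7 and 87.8 in the CD133 knockdown. Some of these markers differed between the groups, and their part in the differences of the members was not tested.

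Sequence and annotation bound how well single members can be read. Of the 87, 42 share no 50-base word with another annotated gene, 13 share over 10% and 4 over 20% of theirs. Exons of 21 members overlap a gene on the opposite strand and those of 4 (Atp5o, Ndufb2, Ndufb8 and Ndufb9) a gene on the same strand. The libraries were made with a stranded kit, while the use of strand in counting is not given in the sources used here, so reads of a member and of an opposite-strand partner may not be told apart.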

How the data were processed

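RNA was measured by poly(A) stranded sequencing in 6 libraries, 2 in each of 3 groups named by their titles. The authors deposited RPKM values for 11164 genes. Tools listed in the submitters' processing notes are TopHat2, HTSeq and bcl2fastq (2.18.0.12), with the build mm10; no source used here gives the annotation or the scaling. Each gene reached 1.00 RPKM or more in some library, and genes under that level are not analysed here. Depth was estimated from steps of low values, as the depth in a scan that made the largest share of them whole reads. At that depth 57.0% to 62.8% were whole within 0.15 read. Even spread gives 30% at a fixed depth and can give more at the best of a scan. The 30% is therefore no measure of how sure the depth is, and reads were not recovered. Values were tested as log2(RPKM + 1), for 10829 genes averaging 1 RPKM or more, by limma 3.58.1 in R 4.3.3 with 3 group means, empirical Bayes with trend (3 residual and 3.69 prior degrees of freedom), two-sided, Benjamini-Hochberg over all genes tested, called at adjusted p under 0.05. The fit was tested on simulated data. Fold changes on this scale understate those of low genes. Positions, lengths and overlaps come from GENCODE M21 (GRCm38) for 11147 genes (99.8%), shared words of 50 bases from its transcripts, and promoters from RefSeq (GRCm38.p6).

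Members and gene lists were chosen with earlier results of these data known. Genes named are the knockdown targets, per complex the 2 highest and the lowest in control, up to 4 called or the 2 smallest p per comparison, isoform families, members that are no subunits, and up to 2 per other list; other named genes were chosen after their values were seen. Alternatives were other pseudocounts, filters and scalings, fits of 2 groups, the replicate block and each library left out. A planned protein comparison was not run. Of the members, 1 is included in the counts and sums and is not reported singly here.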

Additional observations from a re-analysis of the deposited data

How the results depend on the processing

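With 2 libraries a group, single calls lie near the threshold, and low levels limit the precision of genes such as Cox7a1. Counts of members higher in the Glis3 knockdown (3 as reported) were 0 with median centring, 0 with only the 2 groups compared and 2 with quantile normalization or centring within 10 classes of transcript length. Counts lower (1 as reported) were 2 with quantile normalization and 2 with length centring. Calls in either direction over all genes tested numbered 1288 with median centring, 998 with only the 2 groups compared and 1262 with quantile normalization. With length centring they numbered 1767, against 1400 as reported. The median over the members (0.10) was 0.0453 with median centring and 0.0185 with length centring; for the CD133 knockdown (0.05) it was -0.00755 and -0.0286. Median centring moved the median of all genes to -0.01 in both knockdowns. Length centring moved it to -0.0205 in the Glis3 knockdown and -0.0168 in the CD133 knockdown, against 0.0444 and 0.0432 as reported. In the CD133 knockdown, members higher (0 as reported) were 1 with a pseudocount of 0.1, 1 with no filter, 1 with length centring and 2 with quantile normalization. In that order, 1297, 1338, 1489 and 1085 of all genes tested were called there in either direction, against 1278 as reported. Between the knockdowns, members higher (0 as reported) were 1 with quantile normalization and 2 with length centring. For that comparison these fits called 439 and 585 of all genes tested in either direction, against 440 as reported. Leaving out 1 library at a time gave medians over the members of 0.0222 to 0.18 in the Glis3 knockdown. In the CD133 knockdown the medians were -0.0170 to 0.11. The calls of Uqcr10, Ndufb8, Atp5o and Cox7a2l in the Glis3 knockdown were lost in each of these fits. Such fits have fewer residual degrees of freedom, and how many of all genes pass varies widely between them. A lost call therefore says little where few genes pass and more where many still do. Of single genes, the value of Sdhc in the Glis3 knockdown reversed to -0.00642 with length centring, and that of Sdhd in the CD133 knockdown (-0.07) ran from -0.224 without control library 1 to 0.0809 without control library 3. The cause of these changes was not tested.

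Across genes, deviations of same-numbered libraries from their group means correlated at -0.37 for control with Glis3 knockdown and -0.43 for control with CD133 knockdown. Between the knockdowns the correlation was 0.03. These values gave no sign of an effect shared by library number. They cannot decide whether same-numbered libraries were prepared together, because each group gives a single difference between libraries and that of control enters both negative values. With the replicate block, 0 members were higher and 0 lower in the Glis3 knockdown and 0 lower in the CD133 knockdown. That fit called 608 of all genes tested in the Glis3 knockdown and 335 in the CD133 knockdown, in either direction. Without the block, 1400 and 1278 were called, so calls were fewer over all genes too.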
